A study of Mus musculus with 9 samples.

Results

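The 8 genes described here were Ccl3, Ccl4, Ccl6, Ccl9, Wfdc17, Wfdc18, Il12a and Cd69, taken by symbol from the 31053 genes of each count matrix. They were chosen by measured values of these data, their levels in clusters of LSK cells and their co-detection with Flt3 transcripts, so their levels across cell types and their co-detection with Flt3 are given as descriptions without a test. The cells were LSK cells, the Lin-, Sca1+ and cKit+ fraction of mouse bone marrow that holds the stem cells and the earliest progenitors. Young C57BL/6 mice were 10 to 12 weeks old and aged mice were over 80 weeks old. CASIN mice were also over 80 weeks old and received CASIN, an inhibitor of the activity of the small GTPase Cdc42, with 4 intraperitoneal doses of 25 mg/kg, each 24 h after the one before, and harvest on day 5. The young and aged controls received the cyclodextrin vehicle, and cells of all groups were frozen viably and thawed before the libraries were made. Each group had 3 samples, 1 library each, of which young 1 and 2, aged 1 and CASIN 1 and 2 formed sequencing batch 1 and young 3, aged 2 and 3 and CASIN 3 formed batch 2.

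Ccl3, Ccl4, Ccl6 and Ccl9 encode CC chemokines, small secreted proteins that bind G protein-coupled receptors and direct the migration of leukocytes. Ccl3 and Ccl9 bind Ccr1, and Ccl3 is known to restrain the cycling of blood progenitors. Wfdc17 and Wfdc18 encode secreted proteins with a WAP four-disulfide core, a fold found in proteinase inhibitors, Il12a encodes a cytokine subunit shared by IL-12 and IL-35, and Cd69 encodes an early activation antigen that keeps the receptor S1pr1 inside the cell. Flt3 encodes a receptor tyrosine kinase that is gained as stem cells pass to lymphoid-primed multipotent progenitors (LMPPs), in which Dntt, the template-independent DNA polymerase of lymphoid cells, is first transcribed.

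The libraries held 19237354 to 42780953 unique molecular identifiers (UMIs), and 15856 of 32387 barcodes passed the filters, with medians of 9531.5 to 14622 UMIs per cell. The batches stood apart in RNA quality, since 10.96% to 40.6% of the barcodes of batch 1 libraries and 59.1% to 66.8% of those of batch 2 libraries were over the limit of 10% mitochondrial UMIs. Aged 1 stood apart in makeup, with 61.1% of its cells in the HSC-like clusters against 9.08% and 20.5% in the other aged samples. Few barcodes were shared, with 125 cells carrying a barcode also kept in another library, no pair of libraries sharing more than 16, and 12 of 36 pairs sharing none. Nothing in the labels ties a sample to a single animal, so p-values measure only the spread between these samples.

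Of the 8 genes, 6 lay together on chromosome 11, within 138.43 kb from base 83572919 to base 83711348 of GRCm38. Their order was Ccl9 and Ccl6 on the minus strand, then Ccl3 on the minus strand (83647844 to 83649355), Ccl4 on the plus strand (83662584 to 83664683), Wfdc17 and Wfdc18 on the plus strand. Il12a lay on chromosome 3 (68690644 to 68698547, plus strand) and Cd69 on chromosome 6 (129267325 to 129275436, minus strand). All 8 are annotated as protein-coding genes. RefSeq promoters of GRCm38.p6, from 250 bases before to 50 bases after the annotated start, were at hand for 6 of the 8 genes, with none for Ccl4 and Cd69. Those of Ccl3, Ccl9, Wfdc17 and Wfdc18 are shown because these neighbours were detected in the same cells and because 1 of 2 short motifs occurred in each. Capitals mark GAGGAA, a core read by PU.1 and other ETS factors, and TATAAA, the TATA box, on either strand (TTCCTC and TTTATA on the other).

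Ccl3 (minus strand, chr11:83649329-83649628): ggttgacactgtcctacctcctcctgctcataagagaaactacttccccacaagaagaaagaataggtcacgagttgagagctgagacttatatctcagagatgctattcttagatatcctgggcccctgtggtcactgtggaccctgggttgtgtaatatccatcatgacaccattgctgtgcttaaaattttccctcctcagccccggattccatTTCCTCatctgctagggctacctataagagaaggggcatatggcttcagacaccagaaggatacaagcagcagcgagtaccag
Ccl9 (minus strand, chr11:83578587-83578886): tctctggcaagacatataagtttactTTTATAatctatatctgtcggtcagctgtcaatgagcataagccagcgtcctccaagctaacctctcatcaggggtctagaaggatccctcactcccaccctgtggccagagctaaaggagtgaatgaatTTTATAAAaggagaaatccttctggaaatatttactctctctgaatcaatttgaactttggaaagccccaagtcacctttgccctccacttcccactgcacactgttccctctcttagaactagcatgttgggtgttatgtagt
Wfdc17 (plus strand, chr11:83703806-83704105): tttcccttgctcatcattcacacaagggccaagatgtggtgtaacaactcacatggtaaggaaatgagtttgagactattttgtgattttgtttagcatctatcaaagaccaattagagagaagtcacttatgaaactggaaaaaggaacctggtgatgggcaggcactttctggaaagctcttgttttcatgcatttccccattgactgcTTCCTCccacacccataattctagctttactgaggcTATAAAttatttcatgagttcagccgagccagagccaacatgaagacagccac
Wfdc18 (plus strand, chr11:83708754-83709053): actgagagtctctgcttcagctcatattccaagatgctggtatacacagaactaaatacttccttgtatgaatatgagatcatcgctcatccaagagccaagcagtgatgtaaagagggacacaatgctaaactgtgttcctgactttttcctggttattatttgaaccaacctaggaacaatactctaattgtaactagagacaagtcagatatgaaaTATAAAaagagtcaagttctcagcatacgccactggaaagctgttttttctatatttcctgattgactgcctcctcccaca

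GAGGAA occurred in the promoters of Ccl3 (position -33 from the start) and Wfdc17 (-39), and in 28.3% of 27025 promoters of the same length. TATAAA occurred in those of Wfdc18 (position -31), Wfdc17 (-3) and Ccl9, where 3 matches included a pair that overlap each other in the run TTTATAAA, and in 14.2% of all promoters. Of 4 further motifs searched on both strands, the AP-1 site TGANTCA was found in Ccl9 (7.93% of all promoters), the NF-kB site (GGG and CC with 5 bases of any kind between them) in Ccl9 (50.4%), the E-box CAGCTG in Ccl9 (16.1%), and the CRE site TGACGTCA in none of the 6 (1.88%). The promoters of Ccl6 and Il12a (chr3:68690394-68690693) held no match to any of the 6 motifs. Il12a has a further promoter entry (chr3:68691174-68691473) that was left out of these counts. It holds GGGACGGTCC, which fits the NF-kB site. These matches describe letters within 300 bases and carry no measurement of binding.

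Of the 8 genes, 6 were highest in the same cluster of LSK cells, the LMPP-like one, both in summed counts and as means over samples. Ccl6 was highest in another cluster, and for Ccl9 the order depended on how samples were weighted. Clusters were built without the 8 genes among the clustering features. The LMPP-like cluster, 1679 cells named from its markers (Dntt 903 CPM, counts scaled to the total of the cells, against 148 CPM in the other cells; Satb1 196 against 48.8; Flt3 239 against 74.6), held 787 CPM of Ccl3, 774 of Ccl4, 680 of Wfdc17, 287 of Cd69, 238 of Il12a and 66.1 of Wfdc18. The HSC-like clusters (3388 cells) held 10.8 CPM of Ccl3, 81.5 of Ccl4, 17.2 of Wfdc17 and 1.22 of Wfdc18. These are levels of 1 gene across cell types, and levels of different genes are not compared.

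**Figure D1:**
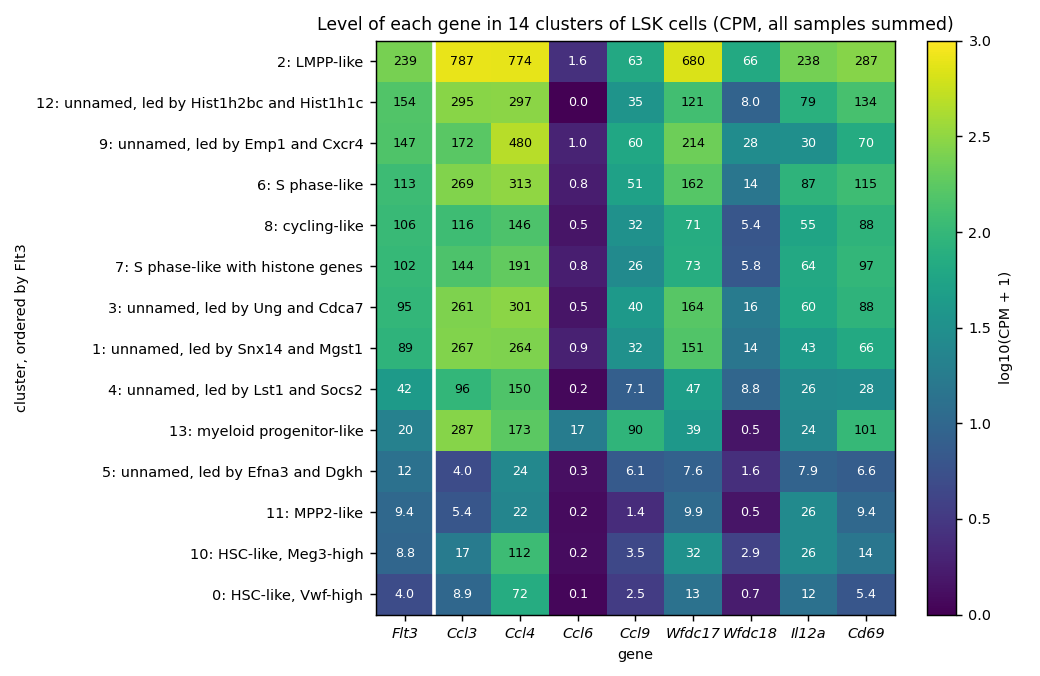
Level of Flt3 and of the 8 genes (columns) in 14 clusters of LSK cells (rows, ordered by Flt3), in CPM over the summed UMIs of all samples; colour is log10(CPM + 1). Ccl3, Ccl4, Wfdc17, Wfdc18, Il12a and Cd69 were highest in the LMPP-like cluster (787, 774, 680, 66.1, 238 and 287 CPM), while Ccl6 and Ccl9 had their highest summed values in the myeloid progenitor-like cluster (17.3 and 90.1 CPM); as means over samples Ccl9 stood at 65.3 CPM there and 65.6 CPM in the LMPP-like cluster.

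Ccl6, and Ccl9 in part, went against the label of Flt3-positive cells. The myeloid progenitor-like cluster held 219 cells with a median of 3250 UMIs, in which Flt3 stood at 20.1 CPM. Its leading genes included Elane, a granule protease gene, and Ms4a3, a gene of granulocyte-monocyte progenitors. They also included S100a8 and S100a9, which are on the list of neutrophil genes used below. Summed over samples, Ccl9 reached 90.1 CPM there against 63.4 CPM in the LMPP-like cluster. As means over samples with at least 20 cells, the values were 65.3 CPM ± 19.2 (SD, n = 5) and 65.6 CPM ± 25.1 (SD, n = 9), so that the clusters did not differ beyond their spread. Ccl6 stood at 17.3 CPM in the myeloid progenitor-like cluster and at no more than 1.6 CPM in each of the other 13, with 169 UMIs in all, of which 21.9% lay in those 219 cells. Ccl3 was present in both places, at 787 CPM in LMPP-like and 287 CPM in myeloid progenitor-like cells. Wfdc18, in contrast, stood at 0.467 CPM in the myeloid progenitor-like cells, a value that rests on 1 UMI.

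Among the other clusters, the one led by Emp1 and Cxcr4 had the next highest Ccl4 (480 CPM), Wfdc17 (214 CPM) and Wfdc18 (27.6 CPM), and 96.9% of its 833 cells came from batch 2. The dividing clusters were intermediate, with Ccl3 at 269 CPM in S phase-like, 144 CPM in histone-rich S phase-like and 116 CPM in cycling-like cells. At the low end, Ccl3 stood at 4.0 CPM in the cluster led by Efna3 and Dgkh, 5.4 CPM in the MPP2-like cluster and 8.9 CPM in the Vwf-high HSC-like cluster. Of the 1117 cells in the cluster led by Efna3 and Dgkh, 96.9% came from batch 2. Ccl4 gave summed values of 71.6 and 112 CPM in the Vwf-high and Meg3-high HSC-like clusters and 22.2 CPM in the MPP2-like cluster. Among samples it ran from 10.1 to 154 CPM and from 7.11 to 188 CPM in the first pair. Over all HSC-like cells Ccl4 stood at 110 CPM in aged 1, 78.7 CPM in CASIN 1 and 163 CPM in CASIN 2, all of batch 1, and at 20.5, 10.6 and 9.77 CPM in aged 2, aged 3 and CASIN 3 of batch 2. Young samples, with 40 Vwf-high and 13 Meg3-high cells in all, did not follow this split and ran from 66.6 to 378 CPM (median 67.2). The log2 ratios of aged and CASIN to young were -1.01 and -0.87 in batch 1 and -2.03 and -2.65 in batch 2. No cell type known to lack Ccl4 was at hand to measure its background of free RNA, whose part in these values was not tested.

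Outside the 8 genes, those whose profile over the 14 clusters was most like that of a member were, as Pearson correlations of log2(CPM + 1) among points that share libraries, Kcnk12 for Ccl3 (r = 0.97), Ano10 for Ccl4 and Wfdc17 (0.94 and 0.93), Emb for Ccl9 (0.98), Ifi27 for Wfdc18 (0.92), Sstr2 for Il12a (0.93) and Tmem206 for Cd69 (0.98). For Ccl6 it was Sema4a (0.98), with Xcl1, another chemokine gene, among the next most alike (0.98). The likeness to Flt3 itself was 0.90 for Wfdc17 and Cd69, 0.86 for Ccl3 and Wfdc18, 0.82 for Ccl4 and Il12a, 0.81 for Ccl9 and 0.04 for Ccl6. Among the members, Ccl3 and Cd69 were most alike (0.96), together with Ccl4 and Wfdc17 (0.96), although Cd69 lies on another chromosome.

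Neighbouring genes on chromosome 11 differed in profile. Of 19 genes of the matrices within 250 kb of Ccl3, 13 were not members, and 4 of these, Rasl10b, Gas2l2, Heatr9 and Gm12576, were not among the 18697 genes found in at least 3 cells. Ccl5, a chemokine gene at -119 kb from Ccl3, had 35.1 CPM in LMPP-like, 0.291 CPM in HSC-like and 181 CPM in myeloid progenitor-like cells, the same order as the summed values of Ccl9. Wfdc21, on the far side of Wfdc18, had 220 CPM in myeloid progenitor-like cells and 0.139 CPM in LMPP-like cells. Taf15 and Heatr6, which encode a TATA-box binding protein associated factor and a HEAT repeat protein, had 69.3 and 22.7 CPM in LMPP-like and 58.9 and 15.9 CPM in HSC-like cells.

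**Figure D2:**
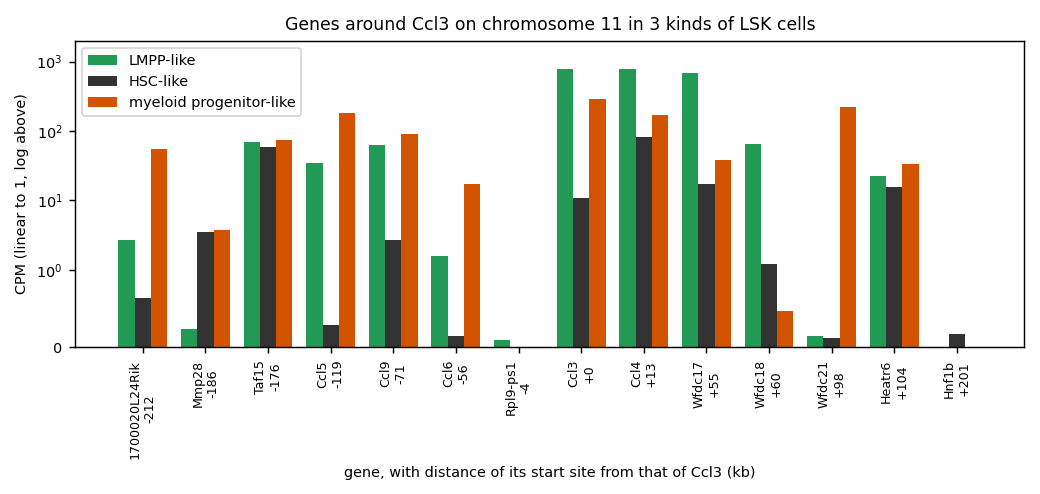
Level (CPM, all samples summed; axis linear to 1 and logarithmic above) of genes with UMIs whose start site lies within 250 kb of that of Ccl3, ordered by the distance of their start site from that of Ccl3 in kb. Ccl3, Ccl4, Wfdc17 and Wfdc18 were highest in LMPP-like cells, the neighbours Ccl5 and Wfdc21 were highest in myeloid progenitor-like cells (181 and 220 CPM), and Taf15 and Heatr6 ranged from 58.9 to 74.7 and from 15.9 to 33.1 CPM over the 3 kinds.

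Transcripts of the 8 genes lay mostly in cells with Flt3. Cells with at least 1 Flt3 UMI are called Flt3-positive and numbered 7223 of 15856 (45.6%, median 14081 UMIs), against 8633 Flt3-negative cells (median 10142 UMIs). Flt3-positive cells held 54.0% of all UMIs but 90.3% of those of Wfdc18, 88.8% of Wfdc17, 85.4% of Ccl3, 84.3% of Cd69, 84.1% of Il12a, 79.0% of Ccl9, 78.4% of Ccl4 and 69.8% of Ccl6. The LMPP-like cluster held 10.3% of all UMIs, 45.5% of those of Wfdc18, 45.0% of Wfdc17 and 36.4% of Ccl3. Counts within cells were very uneven, with a median of 4 Ccl3 UMIs in cells with any and a highest count of 140, and 53.4% of all Ccl3 UMIs in 5% of the cells. For Ccl4 the highest count in a cell was 280 UMIs and the median in cells with any was 2.

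Because Flt3-positive cells were deeper, cells were thinned to 4000 UMIs each, which left 3759 Flt3-positive and 11765 Flt3-negative cells and dropped 332 shallower cells (77 young, 134 aged and 121 CASIN). The Flt3 gate was called again on the thinned UMIs, against 7223 Flt3-positive cells before thinning. Cells that lost their Flt3 UMIs in thinning therefore count as Flt3-negative. Shares with and without thinning thus cover different sets of cells. Median depths before thinning were 9409.5 UMIs in HSC-like and 12280 UMIs in LMPP-like cells. At equal depth, Ccl3 was detected in 40.6% ± 13.7 (SD, n = 9 samples) of Flt3-positive and 16.4% ± 9.58 of Flt3-negative cells, with 2.43% in HSC-like cells. Without thinning these values were 52.7% ± 14.6, 15.2% ± 8.91 and 4.34%. The Flt3-positive share of Ccl3 was the higher one in 9 of 9 samples.

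Wfdc17 gave 43.0% ± 8.91 of Flt3-positive, 15.2% ± 7.13 of Flt3-negative and 3.66% of HSC-like cells (57.8%, 15.1% and 7.11% without thinning). Wfdc18 gave 9.77% ± 3.45, 2.76% ± 1.69 and 0.330% (18.3%, 2.66% and 0.620% without thinning). Cd69 gave 28.1% ± 9.07, 12.0% ± 7.81 and 2.34% (46.0%, 14.8% and 4.46% without thinning). For each of these genes every sample had the higher share in its Flt3-positive cells.

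Il12a and Ccl4 had the highest shares in HSC-like cells. Il12a was detected in 26.97% ± 13.2 of Flt3-positive, 12.1% ± 7.11 of Flt3-negative and 5.94% of HSC-like cells (48.3%, 20.1% and 12.8% without thinning). Ccl4 was detected in 44.8% ± 9.08, 27.02% ± 10.3 and 19.4% (63.1%, 37.3% and 33.8% without thinning). Ccl9 gave 14.7% ± 4.14, 6.58% ± 2.02 and 0.869% (34.4%, 8.72% and 2.13% without thinning), again with the Flt3-positive share higher in 9 of 9 samples for all 3 genes. Ccl6 was the exception, at 0.4003% ± 0.3001 against 0.198% ± 0.142, close to the 0.120% of HSC-like cells and higher in the Flt3-positive cells of only 5 of 9 samples (1.47%, 0.349% and 0.148% without thinning), so that a difference for Ccl6 was not detectable at this depth. The thinned Flt3-positive share rested on 14 cells with a Ccl6 UMI. Without thinning, where Flt3-positive cells were the deeper ones, the Flt3-positive share of Ccl6 was higher in 9 of 9 samples. The myeloid progenitor-like cluster held 21.9% of Ccl6 UMIs, and 11.9% of its cells were Flt3-positive. Its median was 3250 UMIs per cell, so thinning to 4000 UMIs dropped most of these cells.

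**Figure D3:**
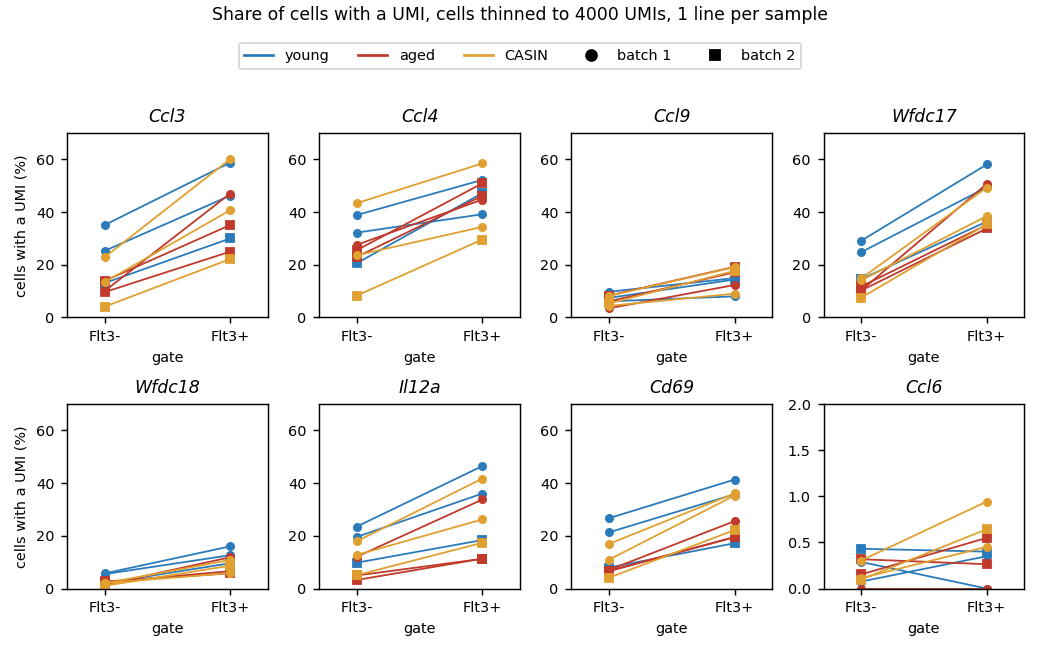
Share of cells with a UMI (percent, cells thinned to 4000 UMIs) in Flt3-negative (Flt3-) and Flt3-positive (Flt3+) cells, 1 line per sample, coloured by group with symbols for batch; the Ccl6 axis ends at 2%. The line of every sample rises for 7 genes, such as Ccl3 from 4.11% to 22.2% in CASIN 3 and from 35.1% to 58.8% in young 2, while those of Ccl6 stay below 1%.

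Read from the other side, 24.2% of the thinned cells held a Flt3 UMI, against 56.3% of cells with Wfdc18, 49.5% with Wfdc17, 47.0% with Ccl3, 45.5% with Cd69, 45.4% with Il12a, 41.2% with Ccl9, 38.9% with Ccl6 (36 cells) and 35.9% with Ccl4. The share over samples ran from 38.3% to 52.0% for Ccl3 and from 21.3% to 46.5% for Ccl4. Levels of Ccl3 and Il12a also went up with the number of Flt3 UMIs in a cell. From 0 through 1 and 2 to 3 or more Flt3 UMIs, Ccl3 went from 137 through 425 and 554 to 752 CPM. Il12a went from 38.6 through 113 and 152 to 220 CPM. Ccl9 went from 21.0 to 45.5 CPM at 1 Flt3 UMI and stood at 49.0 and 49.4 CPM beyond it.

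Cells that held more of the 8 genes were more often LMPP-like. Of cells with none, 9.45% held a Flt3 UMI and 0.666% were LMPP-like, and of the 121 cells with at least 6, 66.1% held a Flt3 UMI and 73.6% were LMPP-like. Within thinned Flt3-positive cells, Dntt split the genes further. Il12a was found in 47.8% of 1618 cells with Dntt and 17.8% of 2141 cells without it, Cd69 in 43.7% and 21.2%, Ccl3 in 58.6% and 33.2%, and Ccl9 in 17.7% and 11.9%.

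Pairs of genes shared Flt3-positive cells to different degrees. Wfdc17 and Wfdc18 were found together in 320 of 3759 cells, 1.70 times the number their separate shares would give, and these are related neighbouring genes whose reads the counting could assign to either. Wfdc18 and Il12a, on different chromosomes, gave a ratio of 1.57, Il12a and Cd69 1.46, Ccl3 and Cd69 1.35 and Ccl3 and Ccl4 1.32. Ccl9 and Cd69 gave 1.00. The cells come from 9 libraries of different levels, and the ratios are descriptions over cells.

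Among samples, the levels of several genes did not overlap between the 2 batches. In LMPP-like cells, Il12a stood at 338, 311 and 138 CPM in the young samples, at 291, 35.3 and 66.2 CPM in the aged samples and at 259, 306 and 86.8 CPM in the CASIN samples (replicates 1 to 3). All 5 samples of batch 1 were above all 4 of batch 2, with a ratio of the batch means of 3.69. Wfdc17 showed the same order in LMPP-like cells, at 712 to 904 CPM in batch 1 and 261 to 512 CPM in batch 2 (ratio 2.31). Wfdc18 and Cd69 also did not overlap between batches in these cells (ratios 1.84 and 1.69), while Ccl3 (1.85), Ccl4 (0.873), Ccl6 (0.979) and Ccl9 (0.642) did. Outside the 8 genes, Dntt did not overlap either (931 to 1109 CPM in batch 1, 484 to 684 CPM in batch 2), while Flt3 did. The share of all genes that separate the batches is not given, so this split is not shown to be particular to the 8 genes. The batches also differed in the mitochondrial shares given above, whose part in these levels was not tested, and the fits below therefore held the batch as a term.

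Ccl3 in LMPP-like cells was 756, 1045 and 632 CPM in the young samples, 933, 528 and 409 CPM in the aged samples and 548, 1112 and 326 CPM in the CASIN samples. Each group thus spanned much of the range of the others. Ccl4 was 615, 854 and 1169 CPM in young, 741, 881 and 882 CPM in aged and 379, 962 and 323 CPM in CASIN samples, with CASIN 1 and CASIN 3 below all others. In Flt3-positive cells as a whole, Ccl3 was 319, 554 and 265 CPM in young, 365, 263 and 202 CPM in aged and 251, 607 and 121 CPM in CASIN samples, and the 3 groups overlapped for each of the 8 genes.

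**Figure D4:**
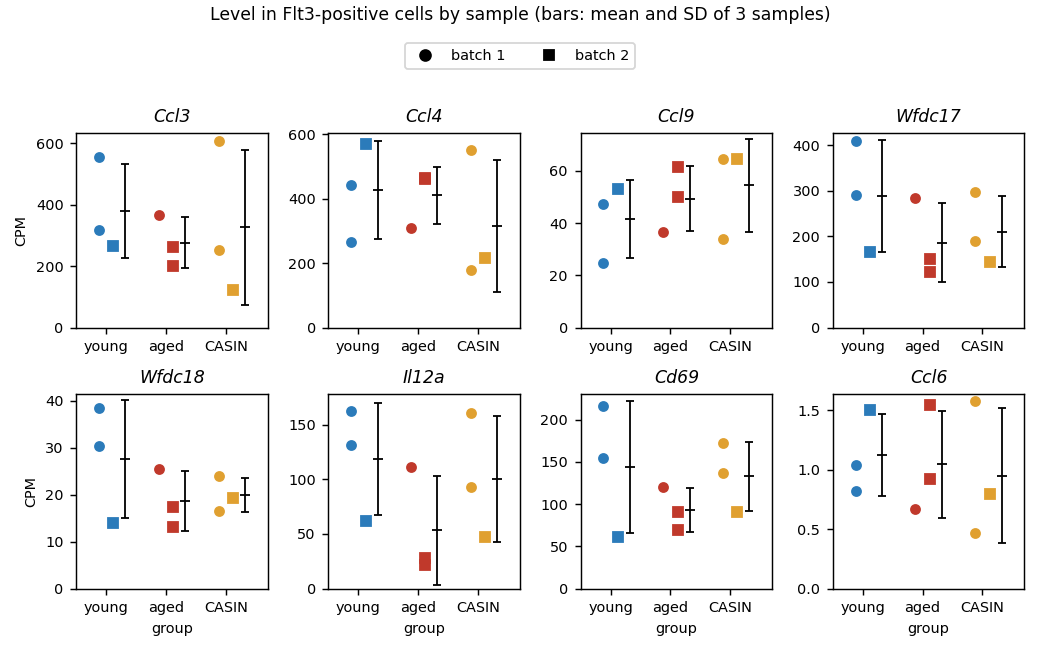
Level of each gene in Flt3-positive cells (CPM) by sample, with circles for batch 1 and squares for batch 2 and a bar for the mean and SD of 3 samples. All groups overlap for all 8 genes, and for Il12a the batch 1 samples (92.8 to 162 CPM) lie above the batch 2 samples (21.6 to 62.1 CPM).

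Age was first compared over all LSK cells, where 1 of the 8 genes passed and 4.1% of 13642 genes tested did (0.513% lower). Il12a stood at 106, 131 and 42.2 CPM in young and at 54.2, 14.2 and 19.0 CPM in aged samples. The groups overlap as a whole, but within each batch the aged samples were the lower ones, with log2 ratios of the means of -1.12 in batch 1 and -1.30 in batch 2. Il12a was lower with age by edgeR's quasi-likelihood test (log2 fold change -1.22, SE 0.20, adjusted p = 0.0164). In summed counts of this kind, fewer cells of a type and less RNA per cell cannot be told apart, and the Flt3-positive share of the same samples was 44.9% to 68.9% in young and 25.8% to 44.6% in aged samples. HSC-like cells, where Il12a is low, made up 0.697% to 1.58% of young and 9.08% to 61.1% of aged samples. With the HSC-like clusters left out, an alternative chosen after seeing the data, the log2 fold change of Il12a was -0.78 with an edgeR adjusted p of 0.166. The call was also lost without aged 1 (adjusted p = 0.0519 in edgeR), young 1 (0.0594) or young 2 (0.0716), while the log2 fold changes in these fits were -1.27, -1.31 and -1.16.

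The other 7 genes did not pass between aged and young LSK cells. Their log2 fold changes were all negative, from -0.23 for Ccl4 to -0.76 for Wfdc17 and Wfdc18, and the median over the 8 genes was -0.60, against 0.01 over all genes tested. Without the HSC-like clusters, the values of Ccl3, Ccl4, Ccl6 and Ccl9 were positive. Without young 3, 3 of the 8 genes passed, Wfdc17 at -1.03 and Wfdc18 at -1.30 besides Il12a. For fits with 1 sample left out, here and below, the share of all genes passing is not given. Their counts of members can therefore not be told from a change over all genes.

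CASIN was compared with young in the same way, and 1 of the 8 genes passed, beside 4.27% of genes tested (0.462% lower). Wfdc17 stood at 230, 320 and 103 CPM in young and 118, 163 and 64.6 CPM in CASIN samples, lower in the CASIN samples of each batch. Its log2 fold change was -0.90 (SE 0.21, adjusted p = 0.0459 in edgeR). Without the HSC-like clusters it was -0.44 with an adjusted p of 0.433. The call was lost in the same edgeR model without young 1 (adjusted p = 0.137), young 2 (0.183), CASIN 1 (0.150), CASIN 2 (0.0574), CASIN 3 (0.203) or aged 2 (0.0615). Its log2 fold change was -0.65 without young 2 and lay between -0.79 and -1.06 in the other 5 fits. Il12a at -0.70 (adjusted p = 0.0694) and Wfdc18 at -0.96 (0.0855) did not pass in edgeR. The count of genes passing was 2 without CASIN 2 (Ccl4 and Il12a), 3 without aged 1 and 2 without young 3.

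CASIN was compared with aged last, and these comparisons share samples with those above. None of the 8 genes passed in edgeR, as none of the 13642 genes did (439 at an unadjusted p under 0.05, and 0 genes by DESeq2), so that 0% of genes passed. Il12a had the lowest unadjusted p in edgeR (0.0276), with a log2 fold change of 0.52 (SE 0.20, adjusted p = 0.987), and it was the higher in CASIN in both batches (log2 ratios 0.50 and 0.51). Ccl3 and Ccl4, at -0.34 and -0.42, moved in opposite directions in the batches, with Ccl4 at a log2 ratio of 0.53 in batch 1 and -1.58 in batch 2.

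**Figure D5:**
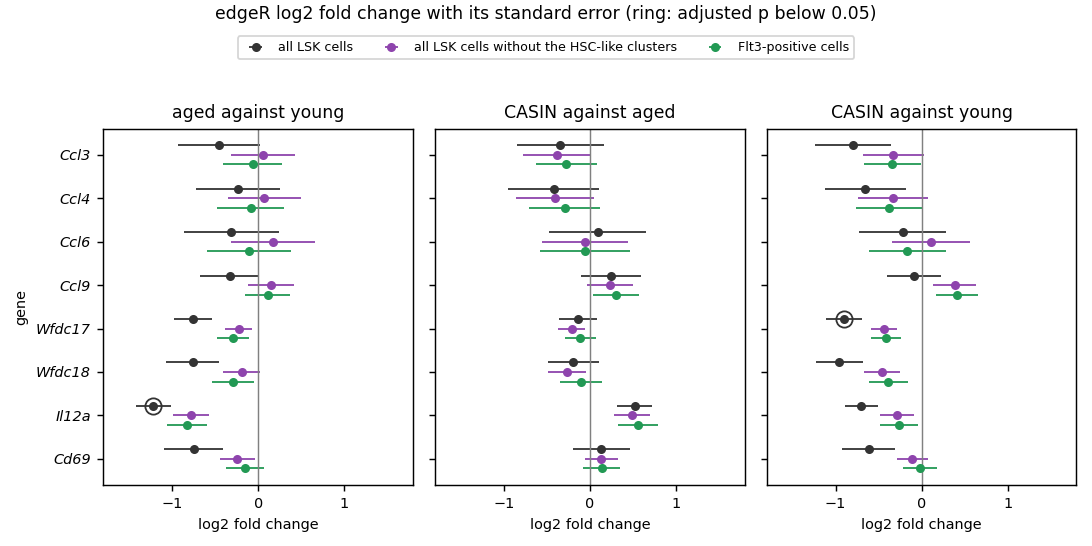
Log2 fold change (edgeR, bars 1 standard error) of the 8 genes for 3 comparisons, in all LSK cells (black), in all LSK cells without the HSC-like clusters (purple) and in Flt3-positive cells (green); a ring marks an adjusted p below 0.05. Il12a in aged against young (-1.22) and Wfdc17 in CASIN against young (-0.90) carry the rings, both for all LSK cells, and without the HSC-like clusters they lie at -0.78 and -0.44.

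Within Flt3-positive cells none of the 8 genes passed in any comparison. The edgeR fit called 0.598% of 12205 genes between aged and young (1575 at an unadjusted p under 0.05), 0% between CASIN and aged (780) and 0.401% between CASIN and young (1079). DESeq2 called 138, 1 and 80 genes. Il12a again had the largest value with age, at -0.83 (SE 0.23, adjusted p = 0.175 in edgeR), where the Flt3-positive cells of the samples held 131, 162 and 62.1 CPM in young and 111, 21.6 and 27.5 CPM in aged mice. The gap lay mainly in batch 2 (log2 ratio -1.30, against -0.40 in batch 1). Ccl9 was at 0.41 between CASIN and young (SE 0.25, adjusted p = 0.697). Without CASIN 2, 1 gene passed between CASIN and young, Ccl4 at -1.18.

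Clusters with at least 20 cells in every sample could be fitted alone, which held for 6 of 14. None of the members passed in any of the 3 comparisons in these 6 clusters, where edgeR called 0% to 0.558% of genes (349 to 1191 genes at an unadjusted p under 0.05; DESeq2 was not run on single clusters). For aged against young, CASIN against aged and CASIN against young, the share called was 0.558%, 0.00962% and 0.25% in the cluster led by Snx14 and Mgst1, 0.37%, 0.0103% and 0.123% in that led by Ung and Cdca7 and 0.375%, 0% and 0.49% in that led by Lst1 and Socs2. In S phase-like cells it was 0.0872%, 0% and 0.0218%, and in histone-rich S phase-like cells 0.146%, 0% and 0.234%. In LMPP-like cells, where 7 genes were tested (Ccl6 was too low), Il12a was at -0.64 with age (SE 0.21, adjusted p = 0.262) and Wfdc17 at -0.42 (SE 0.14, 0.257). Both gaps lay mainly in batch 2, where young 3 was the only young sample. The log2 ratios of the means in batches 1 and 2 were -0.16 and -1.42 for Il12a and -0.04 and -0.94 for Wfdc17. In these cells the edgeR fit called 0.306% of 9462 genes between aged and young (1006 at an unadjusted p under 0.05), 0% between CASIN and aged (722) and 0.127% between CASIN and young (703). Without aged 1, 2 of the 7 genes passed with age in LMPP-like cells. Without CASIN 2, 1 gene passed in each of the comparisons of CASIN.

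In Flt3-negative cells, Cd69 stood at 59.3, 83.1 and 28.7 CPM in young and at 15.01, 11.9 and 19.2 CPM in aged samples. How many of all genes separate aged from young samples in this way was not counted. Its log2 fold change was -1.44 (SE 0.40) with an edgeR adjusted p of 0.0661, beside 5.43% of 12773 genes called in this comparison. None of the 7 genes tested in Flt3-negative cells passed (3068 genes at an unadjusted p under 0.05 and 961 by DESeq2), and none passed between CASIN and young, with 9.86% of genes called (3685 and 1506), or between CASIN and aged, with 0% (407 and 0). The thinned share of Flt3-negative cells with a Cd69 UMI was 6.80% ± 0.250 in aged and 18.7% ± 9.64 in young samples (n = 3 each, two-sided exact permutation p = 0.1, the smallest that 3 against 3 allows). This permutation did not hold the batch, and the difference was -16.9 points in batch 1 and -1.32 points in batch 2. In CPM the log2 ratios of the means were -2.17 and -0.84. The gate was called again after thinning, which took Flt3-negative cells from 679, 686 and 662 to 1388, 1322 and 927 in young samples. In aged samples they went from 1159, 931 and 1042 to 1316, 1260 and 1308. Unthinned shares were 27.7%, 32.7% and 11.6% in young and 7.25%, 8.06% and 10.7% in aged samples. The part of the gate in the thinned difference was not tested. HSC-like cells made up 2.04% to 2.57% of the Flt3-negative cells of young, 14.7% to 78.8% of those of aged and 43.9% to 66.2% of those of CASIN samples. Without the HSC-like clusters Cd69 was at -0.68 in this comparison (adjusted p = 0.242 in edgeR). Without aged 3, 2 genes passed (Cd69 and Wfdc17), and without CASIN 2, Cd69 passed alone. Between CASIN and young, 2 genes passed without CASIN 2 (Ccl3 and Cd69) and 1 each without aged 1 (Cd69) and aged 3 (Wfdc17).

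Whether a condition moved Flt3-positive and Flt3-negative cells differently was tested as an interaction. Between aged and young 1 of the 8 genes passed, beside 0.768% of 13014 genes (0.392% higher in Flt3-positive cells). This was Cd69, whose log2 fold change was higher in Flt3-positive than in Flt3-negative cells by 1.32 (SE 0.23, adjusted p = 0.025 in edgeR). Between CASIN and young 2 passed, beside 4.25% of genes (2.28% higher in Flt3-positive cells), namely Cd69 (1.09, SE 0.21, adjusted p = 0.0161) and Ccl9 (0.75, SE 0.19, 0.0456). Between CASIN and aged none passed in edgeR, with 0% of genes (465 at an unadjusted p under 0.05; DESeq2 was not run on this term). The Flt3-positive and Flt3-negative log2 fold changes of Cd69 were -0.16 and -1.44 with age and -0.02 and -1.06 in CASIN against young, and none of these 4 values passed by itself. All 3 calls were lost without the HSC-like clusters, with Cd69 at 0.54 (edgeR adjusted p = 0.584) and 0.24 (0.939) and Ccl9 at 0.02 (adjusted p = 1).

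Leaving out single samples ended these calls. The Cd69 call with age was lost in edgeR without aged 1 (adjusted p = 0.308), aged 2 (0.0787), young 1 (0.0974), young 2 (0.0623) or CASIN 1 (0.0569). The difference was 0.98 without aged 1 and 1.299 to 1.36 in the other 4 fits. The Cd69 call of CASIN against young was lost without young 1 (adjusted p = 0.0809 in edgeR), young 2 (0.0603), CASIN 1 (0.102) or CASIN 3 (0.101), with differences of 1.12, 1.13, 0.95 and 0.82. That of Ccl9 was lost in edgeR without any 1 of 7 samples, with adjusted p from 0.0515 to 0.318, and kept only without aged 1 or aged 3. The Ccl9 difference was 0.45 without CASIN 3 and 0.68 to 0.88 in the other 6 fits. Without aged 1, 2 genes passed between CASIN and aged (Ccl3 and Ccl4).

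Receptors and partners of the 8 genes were looked up in the same cells. Ccr1, a receptor of Ccl3, stood at 0.343 CPM in Flt3-positive cells. Il12b, the partner with which Il12a forms IL-12, had 0 UMIs in 15856 cells, while Ebi3, its partner in IL-35, stood at 13.7 CPM in Flt3-positive and 13.8 CPM in Flt3-negative cells. S1pr1, the receptor retained by Cd69, stood at 27.1 CPM in Flt3-positive and 59.6 CPM in Flt3-negative cells. Its level was 13.2 CPM in LMPP-like and 67.8 CPM in HSC-like cells. Of 11 such genes, 9 could be tested in all LSK cells, and 1 passed, Ebi3 between CASIN and young at -0.89 (SE 0.17, adjusted p = 0.0245 in edgeR), beside 4.27% of all genes. In Flt3-negative cells 2 of 8 passed between CASIN and young, beside 9.86% of all genes, namely Ebi3 at -1.11 (adjusted p = 0.00826 in edgeR) and Il6st, a signalling chain of cytokine receptors, at 0.78 (0.0417). Ebi3 also passed there between aged and young at -0.87 (adjusted p = 0.0306), beside 5.43% of all genes. Without the HSC-like clusters none of these passed in edgeR, with Ebi3 at -0.86 in all LSK cells (adjusted p = 0.13) and at -1.05 (0.0785) and -0.81 (0.179) in Flt3-negative cells, and Il6st at 0.27 (0.808). None of the 8 receptor and partner genes tested in Flt3-positive cells passed.

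Other chemokines followed the members only in part. Cxcl2, a neutrophil attractant, stood at 120 CPM in LMPP-like and 10.1 CPM in HSC-like cells, whereas Cxcl12, a retention signal for stem cells, stood at 0.694 and 17.4 CPM. Few cells held Cxcl12, with 750 UMIs in 0.662% of all cells, against 8.38% of cells with a Cxcl2 UMI. Ccl8, Ccl11, Ccl12 and Ccl1 had 0 UMIs. None of the 6 other chemokines tested in all LSK cells passed in any comparison, nor did the 5 tested in Flt3-positive or the 6 tested in Flt3-negative cells. Of 7 other WAP four-disulfide core genes, Wfdc2 had the opposite pattern to Wfdc17 and Wfdc18, at 6.34 CPM in LMPP-like and 62.8 CPM in HSC-like cells, and it was higher in Flt3-negative CASIN than young cells at 1.08 (SE 0.27, adjusted p = 0.0387 in edgeR), the 1 of 3 tested there that passed, beside 9.86% of all genes (6.58% higher). The HSC-like share of Flt3-negative cells was 2.04% to 2.57% in young and 43.9% to 66.2% in CASIN samples. Without the HSC-like clusters Wfdc2 was at 0.01 (SE 0.23, adjusted p = 0.9997 in edgeR). The part of the HSC-like share in the change of Wfdc2 was not tested.

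Of 12 genes of the NF-kB and activation response, 2 were higher in all aged than young LSK cells, Nfkbiz at 0.90 (SE 0.15, adjusted p = 0.016 in edgeR) and Il1b at 3.05 (SE 0.70, 0.0439), beside 3.59% of all genes higher. Without the HSC-like clusters these were at 0.79 (adjusted p = 0.125 in edgeR) and 3.25 (0.117). In Flt3-positive cells 2 of the 12 passed with age, beside 0.483% of all genes higher. Cd83, a marker of activated dendritic and B cells, was at 1.17 (SE 0.18, adjusted p = 0.016) and Il1b at 3.73 (0.0467), with 224 Il1b UMIs in the whole series. Without the HSC-like clusters Cd83 was at 1.20 (adjusted p = 0.0141 in edgeR) and Il1b at 3.72 (0.0864). The median log2 fold change of the 12 genes with age was 0.36 in all LSK and 0.44 in Flt3-positive cells, against 0.01 and 0.02 over all genes tested. In Flt3-negative cells Nfkbiz was higher with age at 0.88 (adjusted p = 0.0126 in edgeR), beside 4.16% of all genes higher. It was also higher there in CASIN than young at 0.76 (0.0139), beside 6.58% of all genes higher. Without the HSC-like clusters these were at 0.59 (adjusted p = 0.16 in edgeR) and 0.41 (0.459). None of the 12 passed between CASIN and aged.

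Markers of mature cells were set beside these levels, although the sort for Lin- cells removes cells that carry surface markers of mature blood lineages. The macrophage and monocyte list of 9 genes summed to 223 to 252 CPM in Flt3-positive cells of young, 239 to 302 CPM of aged and 189 to 208 CPM of CASIN samples. Most of this was Lyz2 (198 CPM), with Adgre1, C1qa and C1qb at 8, 10 and 6 UMIs over all Flt3-positive cells. The list summed to 229 CPM in the 4011 Flt3-positive cells with a Ccl3 UMI and 244 CPM in the 3212 without. Of 6 T and NK cell genes, Cd3e had 1 UMI in Flt3-positive cells and most of the sum was Nkg7 (160 CPM). The 6 neutrophil genes summed to 3.27 CPM in Flt3-positive cells with Ccl3 and 5.69 CPM in those without. The B cell list summed to 203 and 132 CPM in the same cells, most of it Ighm (139 CPM in Flt3-positive cells), with Ms4a1 at 7 UMIs.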

How the data were processed

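LSK cells of 3 young, 3 aged and 3 CASIN samples were sequenced with 10x Genomics 3′ chemistry. The authors deposited raw UMI counts made with Cell Ranger 3.1.0 on mm10 (GRCm38), per the submitters' processing notes. Here barcodes with over 10% mitochondrial UMIs, over 6000 genes, UMIs outside 1000 to 40000 or a residual over 0.4 from the regression of genes on UMIs (log scale) were dropped, and genes had to be in 3 or more cells. Cells were integrated and clustered with Seurat 5.3.0 and leidenalg 0.10.2 (2000 features without the 8 genes, 30 components, 20 neighbours, resolution 1). No doublet caller was run, and a limit of 25000 UMIs was an alternative. CPM are UMIs summed per sample over summed totals. UMIs summed per sample were fitted with edgeR 4.0.16 in R 4.3.3 (quasi-likelihood, TMM, filterByExpr, all 9 samples, batch as a term; for the interaction a gate by batch term), with Benjamini-Hochberg adjustment over all genes and a threshold of 0.05. Exact permutation tests (two-sided) served for shares. Thinned shares come from 1 seeded draw, and intervals of counting error are not given for sums over samples. The fit was tested on simulated counts for aged against young, with 200 genes changed. In all LSK, Flt3-positive and Flt3-negative cells, 7.27%, 7.41% and 8.38% of calls were false at the threshold of 0.05. Of tested genes changed by a log2 fold change of 1 in either direction, 72.2%, 84.4% and 71.7% were called in the right direction. Named genes are the 8, Flt3, Dntt, per gene up to 3 of the most like profile (mean of at least 10 CPM in a cluster), neighbours within 250 kb of Ccl3 and 4 lists. Genes, lists and cell types were chosen with earlier results of these data known. Replicate numbers were not used as pairs in the main fits. Alternatives included DESeq2 1.42.0 and each sample left out. Python 3.11.15, numpy 2.4.6, scipy 1.17.1, pandas 2.3.3 and matplotlib 3.10.9 were used.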

Additional observations from a re-analysis of the deposited data

Results flagged for a closer look

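By the interaction test in edgeR, 2 of the 8 genes passed for a different response of Flt3-positive and Flt3-negative cells to a condition. Between aged and young, 0.768% of all 13014 genes passed (0.392% higher in Flt3-positive cells). Between CASIN and young it was 4.25% (2.28% higher). Cd69 had a log2 fold change between aged and young that was higher in Flt3-positive cells by 1.32 (SE 0.23, adjusted p = 0.025), and one between CASIN and young that was higher by 1.09 (SE 0.21, adjusted p = 0.0161). Ccl9 differed between CASIN and young by 0.75 (SE 0.19, adjusted p = 0.0456). For Cd69 the Flt3-positive and Flt3-negative log2 fold changes were -0.16 and -1.44 with age and -0.02 and -1.06 in CASIN against young. Those of Ccl9 in CASIN against young were 0.41 and -0.29. HSC-like cells made up 2.04% to 2.57% of the Flt3-negative cells in young, 14.7% to 78.8% in aged and 43.9% to 66.2% in CASIN samples. Without the HSC-like clusters the 3 differences were 0.54, 0.24 and 0.02 and none passed. The part of the HSC-like share in these differences was not tested. Each of the 3 calls was also lost when certain single samples were left out, as given above.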

How the results depend on the processing

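Alternatives covered the test, filters, batch term, thinning, gates and clusters, and 11 alternatives without the HSC-like clusters were added after seeing the data. Of members called between aged and young in all LSK cells (1), DESeq2 called 2, and 0 were called with no batch term or without the HSC-like clusters. Between CASIN and young (1), DESeq2 and a fit of only the 2 groups compared called 3, thinned cells 2, and a mitochondrial limit of 5%, no batch term and no HSC-like clusters 0. Over all genes, DESeq2 called 1135 and 1269 in these comparisons, against 560 and 582 in edgeR. For the other alternatives the share of all genes passing is not given. Changes in their counts of members can therefore not be told from changes over all genes. Where none was called, 1 was between aged and young in Flt3-positive cells with no filter on low counts, and in Flt3-negative cells with DESeq2, the 5% limit, no filter or thinned cells. Between CASIN and young in Flt3-negative cells it was 2 with only the 2 groups compared and with thinned cells. In the interaction, no gate by batch term and no HSC-like clusters gave 0 in both comparisons with young, and thinned cells gave 3 (aged) and 5 (CASIN). Where the main or the alternative fit passed, the 1 change of sign was Ccl4 between CASIN and young in the interaction. It was at -0.05 in the main fit and 0.56 with thinned cells, where it passed. Values that passed in neither fit also changed sign. An example is Ccl3 with age in Flt3-negative cells, at -0.43 in the main fit and 0.47 without the HSC-like clusters. The cause of these changes was not tested.

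Same-numbered samples correlated at 0.73 to 0.89 within a batch and -0.61 and -0.60 across batches. Correlations of differently numbered samples within a batch are not given. These values therefore cannot decide whether replicate numbers pair the samples. The replicate block called 2 members between CASIN and young in all LSK cells, 2 in Flt3-negative cells and 1 in the cluster led by Ung and Cdca7.

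Leaving out 1 sample gave 0 to 3 members between aged and young and between CASIN and young in all LSK cells, 0 to 1 between CASIN and young in Flt3-positive cells, and 0 to 2 in both comparisons with young in Flt3-negative cells. It gave 0 to 1 in the cluster led by Snx14 and Mgst1 (aged against young, CASIN against aged), 0 to 2 with age and 0 to 1 in both CASIN comparisons in LMPP-like cells, 0 to 2 in the cluster led by Ung and Cdca7 and 0 to 1 in that led by Lst1 and Socs2 (CASIN against young). In the interaction it gave 0 to 2 with age, 0 to 2 for CASIN against aged and 0 to 3 for CASIN against young. A sample left alone in its batch or group was assumed to vary like the others.

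Without thinning, the difference in share between Flt3-positive and Flt3-negative cells grew to 37.4 points for Ccl3, 25.7 for Ccl4 and for Ccl9, 1.12 for Ccl6, 42.8 for Wfdc17, 15.6 for Wfdc18, 28.2 for Il12a and 31.2 for Cd69. At 2000 UMIs it was 18.2 for Wfdc17, 3.84 for Wfdc18, 7.77 for Il12a and 7.60 for Cd69. The Flt3 gate was called anew at each depth, so these differences cover different sets of cells. Depth limits Ccl6 most, with 169 UMIs in all.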
